A study of Drosophila melanogaster with 2 samples.

Results

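Peaks of the CG32532 protein whose summit lay just inside a gene, on the transcribed side of a start site that faces no other promoter, numbered 361 of 5325 replicated peaks (6.78%). A peak was counted when its summit lay 1 to 500 bp downstream of the nearest protein-coding transcription start site (TSS), read along the gene's strand, and when no TSS of another protein-coding gene on the opposite strand stood head to head with it within 1000 bp. Annotated transcripts from Ensembl release 115 set the start sites, and no signal value entered the choice. The other peaks near single-direction TSS were 1326 with the summit upstream and 5 with the summit on the TSS itself. A further 1153 peaks lay within 500 bp of a head-to-head TSS, and 2480 lay farther than 500 bp from any protein-coding TSS. The 361 summits were spread over 337 genes, of which 22 had 2 or more such peaks and 2 had 3 or more.

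The peaks came from chromatin immunoprecipitation with sequencing (ChIP-seq) on whole Drosophila melanogaster embryos of 8 to 24 h. The embryos were transgenic for a fusion of CG32532 with enhanced green fluorescent protein (eGFP), which was pulled down with an anti-GFP antibody. Both samples, the 2 biological replicates, belong to 1 group, so no condition could be compared. Whole embryos mix all cell types, a site bound strongly in few cells and one bound weakly in many cannot be told apart, and the labels do not say in which cells the fusion protein was made. CG32532 encodes a predicted paired-class homeodomain protein, and such proteins recognise TAAT-type sequences. A fly core promoter spans both sides of its TSS: the TATA box stands upstream, the initiator covers the TSS, and the downstream promoter element (DPE) lies within the first transcribed bases. The sequence that follows holds the 5′ untranslated region (UTR) and often the start of a first intron, where fly genes commonly carry enhancers.

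Sequence at the summits of 8 of the strongest of these peaks is shown first, since the motif counts given later were read from such stretches. Each sequence is from the RefSeq copy of assembly dm6, centred on the summit and written 5′ to 3′ along the gene, with 30 bases where the stretch touches an untranslated exon and up to 100 otherwise. Capitals mark matches, on either strand, to the short factor motifs searched, and A runs and CA repeats are not marked here. They are the summits of ph-p (chrX:2137904-2137933, minus strand, 5′ UTR, 452 bp downstream), CG31612 (chr2L:21794905-21795004, minus, intron, 492 bp), CG18622 (chr3R:16986634-16986663, minus, 5′ UTR, 201 bp), Cftr (chr3R:24543175-24543274, minus, intron, 200 bp), egh (chrX:2593928-2593957, plus, intron, 366 bp), Trl (chr3L:14757207-14757236, minus, 5′ UTR, 114 bp), CG9399 (chr3R:9574154-9574183, minus, 5′ UTR, 42 bp) and dlg1 (chrX:11390738-11390837, plus, intron, 416 bp).
ph-p: ttatataattctattttactaaacgttttc
CG31612: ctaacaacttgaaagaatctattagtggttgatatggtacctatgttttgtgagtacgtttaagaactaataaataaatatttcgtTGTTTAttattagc
CG18622: atcaggtttttggctaacaatgcttaaata
Cftr: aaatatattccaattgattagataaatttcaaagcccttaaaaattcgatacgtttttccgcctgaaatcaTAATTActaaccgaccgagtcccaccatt
egh: ttaggtacgcaaatatactcaattgggatg
Trl: tttgcgaaaaatcccaacttgaagagaatt
CG9399: CAGCTGttgcggtgctaaaattatttttat
dlg1: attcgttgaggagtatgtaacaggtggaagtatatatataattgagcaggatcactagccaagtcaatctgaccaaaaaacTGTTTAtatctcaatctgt

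Of these 8 stretches, that of Cftr held the homeodomain core TAATTA, those of CG31612 and dlg1 held the forkhead core TGTTTA, and that of CG9399 began with the E-box CAGCTG. The other 4 held none of the factor motifs within the bases shown.

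Most summits lay close to the TSS. The median distance was 75 bp (interquartile range 31 to 202 bp), and 151 of 361 (41.8%) lay within 50 bp. The number of summits per 50 bp fell from 151 at 1 to 50 bp to 54 at 51 to 100 bp, 46 at 101 to 150 bp, 18 at 151 to 200 bp and 7 at 251 to 300 bp. It then stood at 14 to 21 per 50 bp up to the 500 bp limit and at 12 to 22 from 501 to 1000 bp. The limit therefore cut through a level stretch, and the low point lay at 251 to 300 bp. Upstream, the count was highest at 101 to 150 bp, with 245 summits, and was 196 in the 50 bp next to the TSS. The nearest summits just past the limit were those of Pcp, 503 bp downstream with a pooled signal 0.540 times the median peak, and CG5171, 504 bp downstream at 1.57 times. Just upstream of the TSS, lolal and CG8026 had summits at -1 bp with 1.73 and 0.956 times. Among the counted peaks the nearest to a TSS, at 1 bp, were those of Sik3, Nedd4 and CG15629, and the farthest were those of sws at 497 bp and of tapas and rogdi at 495 bp.

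**Figure D1:**
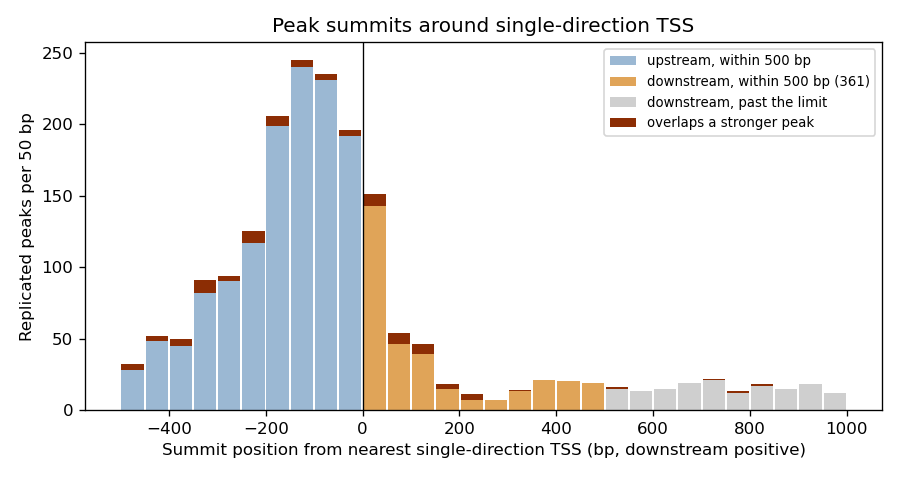
Replicated peaks per 50 bp around single-direction TSS (x axis, summit position in bp, downstream positive; y axis, number of peaks), with peaks that overlap a stronger replicated peak stacked in dark red. The counts fall from 151 in the first 50 bp downstream to 7 at 251 to 300 bp, and stay between 12 and 22 from 351 bp to 1000 bp.

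The gene parts under the summits changed along this distance. In all, 251 summits (69.5%, exact 95% binomial interval 64.5 to 74.2%) lay in the 5′ UTR, 91 (25.2%, 20.8 to 30.02%) in an intron and 14 (3.88%, 2.14 to 6.42%) in a coding exon. Of the others, 4 differed between transcripts of the same TSS and 1 lay past the end of its transcript. Within 50 bp, 149 of 151 summits were in the 5′ UTR and 2 in an intron, and at 251 to 500 bp 60 of 81 (74.1%) were in an intron. The first exon had a median length of 277 bp for peaks within 50 bp and 184 bp for those at 251 to 500 bp, and the summit lay past the end of the first exon in 96 peaks (26.6%). The peak interval itself reached the TSS in 247 of 361 peaks (68.4%), against 636 of 1326 upstream peaks (48.0%), and in 0 of 81 at 251 to 500 bp. Upstream summits lay farther out, at a median of -148 bp, and this comparison was not matched for distance. Since intervals are set from counts of peaks, they cover counting error only.

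Downstream of one start was often upstream of another start of the same gene. This was so for 176 of 361 peaks (48.8%), while 105 (29.1%) had a nearest gene with a single annotated TSS. The gene also had a replicated peak upstream of a single-direction TSS in 104 cases (28.8%), and 149 peaks (41.3%) were the only replicated peak nearest to their gene. The peaks were divided over arm 2L (58), arm 2R (73), arm 3L (86), arm 3R (70) and X (74), and chromosomes 4 and Y had 0. The X held 20.5% of them (exact interval 16.5 to 25.04%) against 19.5% of all replicated peaks.

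The side of the TSS on which a summit lay was then read in each replicate. The replicates' own ranked lists had an overlapping peak for 359 of 361 peaks in replicate 1 and for all 361 in replicate 2. The nearest summit of replicate 1 was downstream in 296 of 359 (82.5%) and that of replicate 2 in 303 of 361 (83.9%). It was downstream in both replicates for 260 of 359 (72.4%, exact interval 67.5 to 77.0%) and in neither for 22. For comparison, 1212 of 1314 upstream peaks (92.2%) were upstream in both. Upstream summits lay farther from the TSS, at a median of -148 bp against 75 bp, and the comparison was not matched for distance. The summits of the replicates lay a median of 28 bp apart, so the closest peaks could fall on either side: within 50 bp of the TSS 77 of 149 (51.7%) were downstream in both replicates. This count was 42 of 54 (77.8%) at 51 to 100 bp, 60 of 75 (80%) at 101 to 250 bp and 81 of 81 at 251 to 500 bp. The replicate summit read was the one nearest to the pooled summit, which comes from the same libraries. Far from the TSS, agreement in side was therefore largely set by the choice of peaks. Nedd4, 1 bp downstream in the replicated set, had its summit at -27 bp in replicate 1 and -26 bp in replicate 2. RpS4, 9 bp downstream, had it at -10 and 14 bp. By contrast ph-p, 452 bp downstream, had it at 453 and 461 bp.

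**Figure D2:**
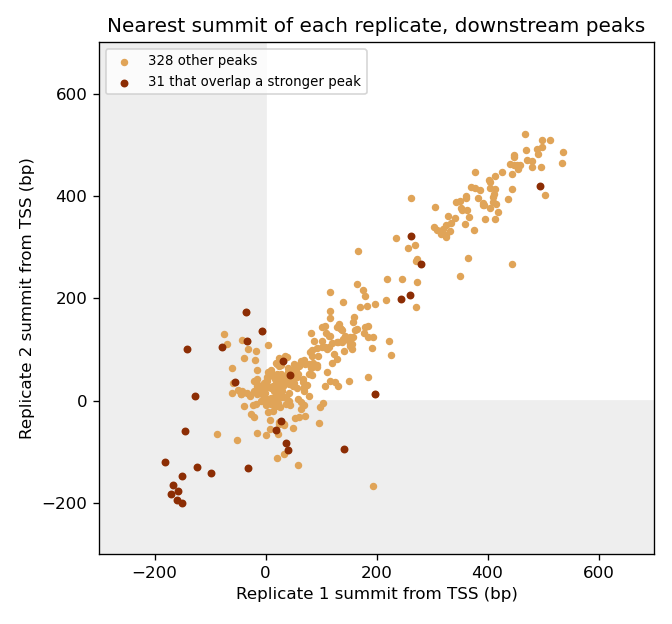
Position of the nearest summit of each replicate relative to the TSS (x axis replicate 1, y axis replicate 2, in bp) for 359 downstream peaks, with the upstream side shaded. The points spread to both sides of 0 near the TSS and are all downstream in both replicates for the 81 peaks at 251 to 500 bp, and the dark points are the 31 peaks that overlap a stronger peak.

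A small group of the peaks sat beside a stronger one. Of the 361, 31 (8.59%) overlapped a replicated peak with a higher pooled signal, against 54 of 1326 upstream peaks (4.07%) and 239 of all 5325 (4.49%). All 31 lay at the higher coordinate of the pair, with the summit 199 to 233 bp from that of the stronger peak (median 203 bp), whichever way the gene ran. Their pooled signal was a median of 0.126 times that of the stronger neighbour, and 30 of 31 had the same IDR score as it within 1. The same held in the whole set, where 233 of 239 such peaks lay at the higher coordinate at a median of 204 bp. The nearest gene was on the plus strand for 26 of the 31 and on the minus strand for 5, and the stronger neighbour was an upstream peak in 24 cases, a downstream peak in 6 and a head-to-head peak in 1. These 31 included the 20 weakest of the 361 by pooled signal and 29 of the 30 weakest. Where the peak overlaps a stronger one, the replicate values come mostly from that neighbour. The summit at CG42327, 55 bp downstream, stood at 0.299 times the median peak in the pooled set, while its replicate values of 2.54 and 3.02 times belong to summits at -123 and -130 bp. Results are therefore also given for the other 330 peaks. Of those with a peak in both replicates, 252 of 328 (76.8%) were downstream in both, and within 50 bp of the TSS 76 of 141 were (53.9%). What produced the fixed spacing was not tested.

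Downstream peaks were weaker than upstream ones. Signal is given as a multiple of the median replicated peak, since the scale of the deposited values is not stated. The pooled signal had a median of 0.755 times the median peak (interquartile range 0.597 to 1.14, lowest 0.0121, highest 11.6), against 1.09 upstream and 1.14 at head-to-head TSS. Above the median peak stood 113 of 361 (31.3%) and 735 of 1326 upstream (55.4%). Among the 533 strongest of all replicated peaks were 17 of the downstream peaks (4.71% of them) and 176 of the upstream ones (13.3%). In replicate 1 the median was 0.837 times for downstream and 1.07 for upstream peaks, and in replicate 2 it was 0.766 and 1.12. The downstream median was 0.785 of the upstream one in replicate 1 and 0.686 in replicate 2 (0.735 ± 0.0696, SD, n = 2), so it was lower in both replicates by more than the SD between them. Without the peaks beside a stronger one these ratios were 0.780 and 0.672. No p-value is given, since 2 replicates are too few for an exact test over samples to pass a usual threshold.

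Strength was lowest at 51 to 100 bp and highest at 251 to 500 bp. The median pooled signal was 0.731 times the median peak within 50 bp, 0.645 at 51 to 100 bp, 0.815 at 101 to 250 bp and 0.986 at 251 to 500 bp. Without peaks beside a stronger one these medians were 0.747, 0.697, 0.887 and 0.996. Summits in introns had a median of 0.897 and those in the 5′ UTR of 0.718. The intron median was 0.933 in replicate 1 and 0.939 in replicate 2, and that of the 5′ UTR was 0.820 and 0.720. Across all 361 peaks the Spearman rho of distance and pooled signal was 0.170, a description over peaks of the same libraries. The rho of GC content in the 50 bp around the summit with pooled signal was -0.335. The strongest 90 peaks had 38.5% GC there and the weakest 90 that stood beside no stronger peak had 49.6%.

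**Figure D3:**
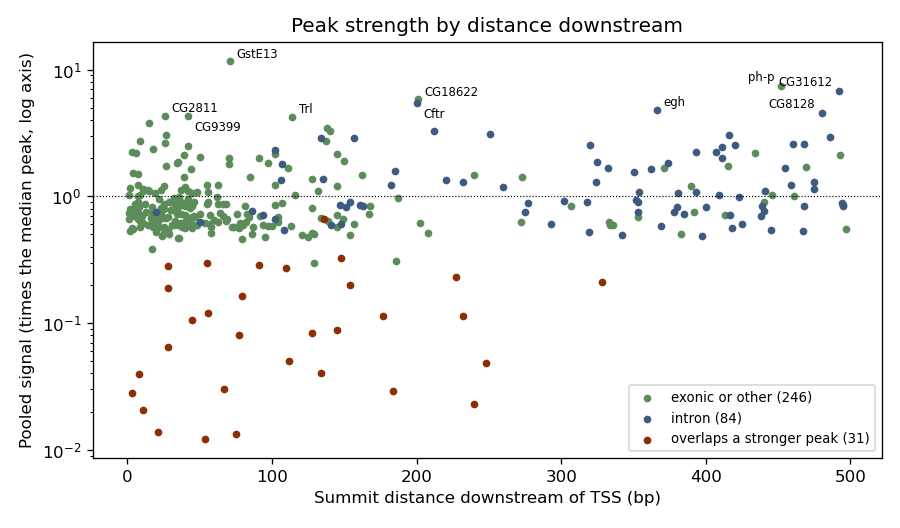
Pooled signal of the 361 downstream peaks (y axis, times the median replicated peak, log axis) against distance downstream of the TSS (x axis, bp), coloured by gene part. The medians are 0.731 within 50 bp, 0.645 at 51 to 100 bp, 0.815 at 101 to 250 bp and 0.986 at 251 to 500 bp, and every point under 0.300 is a peak that overlaps a stronger one.

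Fewer downstream peaks were found by each replicate alone. A peak was held when it overlapped a peak of the set thresholded on that replicate alone. Both replicates held 185 of 361 (51.2%, exact interval 45.96 to 56.5%), against 63.0% of all replicated peaks and 878 of 1326 upstream peaks (66.2%). The difference from upstream peaks was -14.97 percentage points (Newcombe 95% interval -20.7 to -9.23, counting error over peaks), and without peaks beside a stronger one it was -13.4 points (-19.3 to -7.44). It was smaller among peaks with a score of 1000, at -6.41 points, and in the own set of replicate 1, at -7.41 points. Replicate 2 alone held 118, replicate 1 alone held 19, and 39 were held by neither. The share was lowest at 51 to 100 bp, with 20 of 54 (37.0%), and highest at 251 to 500 bp, with 51 of 81 (63.0%). Each replicate's own set gave a share of downstream peaks near that of the replicated set, with 252 of 3957 in replicate 1 (6.37%) and 489 of 6850 in replicate 2 (7.14%). Over the 359 peaks with values in both, the replicate multiples had a Spearman rho of 0.565, and over all replicated peaks it was 0.745. Both are descriptions over peaks that share their libraries.

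**Figure D4:**
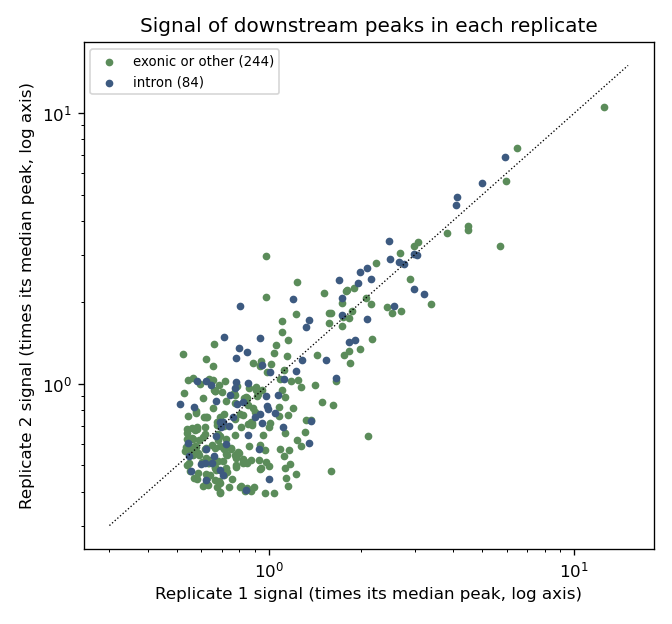
Signal of 328 downstream peaks that overlap no stronger peak in replicate 1 (x axis) and replicate 2 (y axis), each as a multiple of that replicate's median peak on log axes, with the line of equality. The highest point is GstE13 at 12.5 and 10.5 times, and CG2811, at 5.72 and 3.24 times, lies below the line.

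The strongest peaks lay mostly well inside the gene. Of the 20 strongest by the mean of both replicates, 14 lay more than 100 bp downstream, against 156 of all 361 (43.2%). The summit was in an intron in 9 (25.2% of all 361) and in the 5′ UTR in 11 (69.5%), and 7 were on X (20.5%). Both replicates' own sets held 20 of 20 (51.2% of all 361), but the ranking itself used the replicates' signals. The summit was downstream in both replicates for 19 of the 20. The values that place CG42327 here are those of its stronger upstream neighbour. The strongest was in the 5′ UTR of GstE13, a glutathione S-transferase gene (arm 2R, 9122018 to 9122369, 71 bp downstream). It stood at 12.5 times the median peak in replicate 1 and 10.5 times in replicate 2 (11.5 ± 1.42, SD, n = 2), rank 31 of all 5325 peaks. Both replicates placed its summit downstream, at 85 and 73 bp, and the gene was nearest to no other replicated peak.

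The Polycomb group gene ph-p, a subunit of a chromatin-silencing complex, had the next strongest peak (X, 2137686 to 2138122, 452 bp downstream). It reached 6.49 times in replicate 1 and 7.40 times in replicate 2. A second, weaker ph-p peak 102 bp downstream of another start stood at 0.849 and 0.887 times. CG31612 had an intronic peak (2L, 21794787 to 21795107, 492 bp downstream) at 5.92 and 6.89 times. CG18622 had a peak in the 5′ UTR at 5.97 and 5.61 times (3R, 16986516 to 16986782, 201 bp), and a second one at 40 bp at 0.749 and 0.577 times. In ph-p and CG18622 the peak farther from its TSS was the stronger in both replicates, and in Trpm and dlg1, described next, the nearer one was.

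Cftr, egh, Trpm, Cerk and CAH3 were also among the 20 strongest. Cftr, named for the related chloride channel of mammals, had an intronic peak at 4.99 and 5.51 times the median peak in the 2 replicates (3R, 24543090 to 24543375, 200 bp). Egghead (egh), a glycosyltransferase of glycosphingolipid synthesis, had an intronic peak 366 bp downstream at 4.14 and 4.90 times. Both stood at more than 4 times the median peak in each library. The cation channel gene Trpm had a peak in the 5′ UTR at 140 bp with 2.98 and 3.23 times, and an intronic one at 182 bp of another start with 0.845 and 1.31 times. Cerk, which encodes ceramide kinase, had an intronic peak at 2.46 and 3.38 times. The carbonic anhydrase gene CAH3 had a peak at 3.07 and 3.33 times.

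Trl, the gene for GAGA factor, which binds GA-rich sequence at many fly promoters, had a peak in the 5′ UTR 114 bp downstream at 4.47 and 3.83 times. Its summits lay at 114 and 127 bp in the replicates, and the gene was nearest to 6 replicated peaks in all. The gene of the junction and synapse scaffold dlg1 had an intronic peak 416 bp downstream at 3.05 and 2.99 times, and a second at 467 bp of another start at 0.598 and 0.505 times. Neither replicate's own set held the second one. The ecdysone-induced calcium-binding protein gene Eip63F-1 had an intronic peak at 2.66 and 2.83 times, 486 bp downstream. The others of the 20 were CG2811 (5.72 and 3.24 times), CG8128, CG9399, Ufsp1, rudhira, RpL30, CG3588 and CG42327, and apart from CG42327 their multiples were between 2.68 and 5.72 in replicate 1 and between 2.78 and 4.57 in replicate 2.

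The most extreme ratios between the replicates were at peaks 4 to 134 bp downstream. Over peaks, the SD of the log2 ratio was 0.603 within 50 bp and 0.522 at 51 to 100 bp. It was 0.553 at 101 to 250 bp and 0.495 at 251 to 500 bp. Peaks beside a stronger one had an SD of 0.766 and the others 0.538. CG46339, 18 bp downstream, had 0.975 times in replicate 1 and 2.96 times in replicate 2. The gene p24-1, 7 bp downstream, had 2.12 and 0.642 times, Sumo, for the small ubiquitin-like modifier, had 1.60 and 0.478 times at 4 bp, and sky had 1.15 and 0.419 times at 47 bp. Both libraries listed a peak at each of these. For scb, at 134 bp, and Gycbeta100B, which had the next lowest ratios, the peak overlaps a stronger upstream one. The values of Gycbeta100B belong to summits at -150 and -147 bp. Those of scb belong to summits on opposite sides of the TSS, at 19 bp in replicate 1 and -57 bp in replicate 2. The weakest peaks by the same mean were at Pfrx (0.580 and 0.447 times), Rm62 (0.549 and 0.475 times) and CG5002 (0.568 and 0.450 times). None of these 3 was held by either replicate's own set, beside 39 of all 361, but the ranking itself used the replicates' signals.

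GC content was higher at downstream summits. The 200 bp around the summit had 45.6% ± 8.45 GC (SD over 361 peaks), against 39.2% ± 9.12 over upstream peaks. Within the group it fell from 48.1% at 1 to 50 bp to 41.0% at 251 to 500 bp. The part of this difference in the motif shares below was not tested.

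The homeodomain core was less frequent at downstream than at upstream summits. TAATTA, searched on both strands in the 200 bp around the summit, was in 23 of 361 downstream windows (6.37%, exact interval 4.08 to 9.41%) and in 187 of 1326 upstream ones (14.1%). The difference was -7.73 percentage points (Newcombe interval -10.6 to -4.24), and the own sets of replicates 1 and 2 gave -7.66 and -4.36 points. Windows at the same median distance from all 13239 single-direction TSS gave 7.72% downstream and 14.5% upstream, and both of these shares lay inside the exact intervals of the peaks on that side. By distance, 7 of 205 windows (3.41%) within 100 bp had the core, 11 of 75 (14.7%) at 101 to 250 bp and 5 of 81 (6.17%) at 251 to 500 bp. The windows with the core had 39.8% GC, and 10 of the strongest 90 peaks held it against 4 of the weakest 90 beside no stronger peak. A paired site, TAAT followed by ATTA after 2 or 3 bases, which paired-class homeodomains can bind as dimers, was in 8 downstream windows (2.22%) and 73 upstream ones (5.51%), a difference of -3.29 points (-5.03 to -0.92). At all single-direction TSS it was in 1.64% of downstream and 4.01% of upstream windows. The first of these shares lay inside the exact interval of the downstream peaks (0.961 to 4.32%). The second lay below that of the upstream peaks (4.34 to 6.87%). Some matches of the paired site overlap TAATTA.

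CA repeats were more frequent at downstream summits. CACACAC or its complement was in 52 of 361 windows (14.4%, exact interval 10.9 to 18.5%) and in 72 of 1326 upstream ones (5.43%). The difference was 8.97 points (Newcombe interval 5.46 to 13.1), and the own sets of replicates 1 and 2 gave 4.88 and 9.46 points. Windows at all single-direction TSS gave 7.93% downstream, below the interval of the downstream peaks, and 7.48% upstream, above that of the upstream peaks (4.27 to 6.79%). The repeat was in 39 of 251 windows in the 5′ UTR (15.5%), in 12 of 91 in introns (13.2%), and in 24 of 185 peaks held by both replicates (12.97%) against 28 of 176 others (15.9%). Only 5 of the 52 stood beside a stronger peak, and without such peaks the difference was 8.82 points. Within 50 bp of the summit the repeat was in 18 of 361 downstream windows (4.99%) and 29 of 1326 upstream ones (2.19%), a difference of 2.80 points, so in most of the 52 it lay farther out. The longest alternating run had a median of 8 bp and a maximum of 16 bp, and the 52 windows had 49.3% GC. This comparison was singled out after the values of 13 motifs were seen.

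The repeats at 4 of the strongest of these peaks are shown to give their length and setting, written along the gene with each match in capitals, for CG11151 (chrX:13740157-13740186, plus strand, intron, 460 bp downstream), IntS6 (chrX:5746075-5746104, minus, intron, 325 bp), Nrx-1 (chr3R:22469177-22469206, plus, 5′ UTR, 91 bp) and lawc (chrX:8410076-8410105, minus, 5′ UTR, 70 bp).
CG11151: gcacCACACACACACACACtcccaacgcgc
IntS6: caacgataaatCACACACcgctcgtttaat
Nrx-1: ttttggcattccCACACACtacactcaaag
lawc: ccttcacttcaGTGTGTGagtcgcgataaa
IntS6 encodes a subunit of the Integrator complex and Nrx-1 the synaptic adhesion protein neurexin. CG11151 stood at 2.69 ± 0.757 times the median peak (SD, n = 2), IntS6 at 1.91 ± 0.251, Nrx-1 at 1.85 ± 0.465 and lawc at 1.71 ± 0.172. Along the gene, the repeat lay at -70 bp from the summit in CG11151, -40 in IntS6, -80 in Nrx-1 and -63 in lawc (negative values are toward the TSS). At Orct, a peak lower in rank that also held the repeat, it lay on the far side, at 94 bp.

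The A run AAAAAA was in 35.5% of downstream and 41.8% of upstream windows, a difference of -6.32 points (-11.8 to -0.62). The own sets of replicates 1 and 2 gave -12.1 and -4.41 points. Without peaks beside a stronger one the interval of the difference included 0 (-5.92 points, -11.6 to 0.033), and windows at all single-direction TSS had 32.2% downstream and 37.4% upstream. The GAGA factor site GAGAG was in 29.4% and 33.3% (-9.05 to 1.59 points), and the direction of this difference turned in replicate 1's own set. Windows at all single-direction TSS had GAGAG in 23.0% downstream and 28.6% upstream. Both shares lay below the exact intervals of the peaks on that side (24.7 to 34.4% and 30.7 to 35.9%). TATCGATA, the site of the promoter factor DREF, was in 3.88% and 5.81% (-4.01 to 0.84 points) and in 13 of 205 windows (6.34%) within 100 bp of the TSS. At all single-direction TSS it was in 1.62% of downstream and 2.36% of upstream windows. These shares too lay below the intervals of the peaks (2.14 to 6.42% and 4.61 to 7.20%). The forkhead core TGTTTA was in 17.2% and 21.0% (-8.00 to 0.94 points) and the E-box CAGCTG in 10.2% and 12.4% (-5.43 to 1.81 points). For the core promoter motif 1 (GGTCACACT), the E-box CACGTG, the Zelda site CAGGTAG, the cAMP response element TGACGTCA and the AP-1 site TGANTCA the shares were between 0.554% and 4.71% and each interval of the difference included 0. An interval that includes 0 does not show that the shares are equal.

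**Figure D5:**
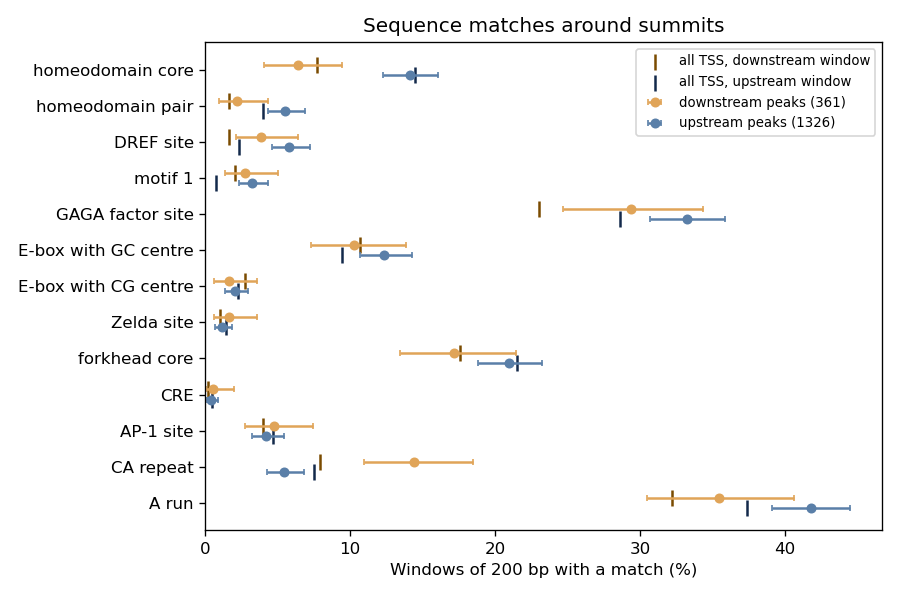
Share of 200 bp windows around summits that held each motif (x axis, percent) for 361 downstream and 1326 upstream peaks, with exact 95% binomial intervals, and ticks for windows at the same median distances from all single-direction TSS. The homeodomain core stands at 6.37% downstream and 14.1% upstream, and the CA repeat at 14.4% and 5.43%.

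Core promoter motifs were then counted at the start sites themselves. Of 356 TSS next to a downstream peak, 68 (19.1%) had the initiator TCAGT, against 18.8% of 1284 TSS with an upstream peak and 13.9% of all 13239. The GAGA site within 150 bp upstream was at 35.96%, 37.3% and 24.1%, the DREF site at 7.30%, 5.76% and 3.66%, and motif 1 at 5.62%, 4.60% and 2.55%. The DPE letters GGACG or AGACG, searched downstream of the TSS, were at 7.87%, 7.48% and 4.70%. The TATA box TATAAA was at 4.49%, 3.04% and 7.87%. In each of these, and for the TCT initiator described next, the interval of the difference between downstream and upstream peaks included 0, and in the initiator, for example, it ran from -4.03 to 5.19 points. The TCT initiator was at 1.69%, 0.701% and 0.725%, and the share of all TSS lay inside its interval (0.621 to 3.63%). For each of the other 6 motifs the share of all TSS lay outside the exact interval of the TSS beside a downstream peak. It was above the interval for the TATA box (2.59 to 7.20%) and below the interval for the other 5. A match is a run of letters and no measure of binding.

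Gene groups were counted by the share of their genes with a downstream peak, beside the 337 of 13968 protein-coding genes (2.41%) that had one. Of the same 13968 genes, 1185 (8.48%) had an upstream peak and 1113 had a peak at a head-to-head start. Cytoplasmic ribosomal protein genes, many of which start at a pyrimidine-rich TCT initiator, had 9 of 93 (9.68%), with 15 upstream and 44 at head-to-head starts. Their summits lay 4 to 104 bp downstream (median 23 bp). Within 50 bp were 8 of 9, beside 41.8% of all downstream peaks, and both replicates held 8 of 9, beside 51.2%. Their pooled signal ran from 0.632 to 3.06 times the median peak. RpL30 had 2.68 and 3.05 times in the replicates, RpS4 2.24 and 2.78, and RpS23 1.76 and 1.28. The others were RpL12, RpS30, RpL37-1, RpS2, RpL6 and RpS9. The TCT initiator was at 1 of the 9 starts, and at 12 of 64 single-direction starts of ribosomal protein genes.

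Mitochondrial ribosomal protein genes had 0 of 73 and oxidative phosphorylation genes 0 of 87, with 2 genes upstream in each and 15 and 11 at head-to-head starts. Translation factors and tRNA synthetases had 2 of 85. These were the elongation factor eEF2, 27 bp downstream at 1.74 and 1.77 times the median peak, and eIF2A, whose peak stood beside a stronger one. The proteasome had 1 of 48, the ubiquitin receptor subunit Rpn10, 2 bp downstream at 1.49 and 0.860 times.

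The highest share among the lists counted was that of chromatin regulators, 6 of 37 (16.2%), and RNA-binding and splicing factors had 5 of 34 (14.7%). Beside ph-p and Trl, the chromatin genes were lola, Su(z)2, CTCF and ph-d. The BTB zinc finger gene lola had a peak 36 bp downstream at 0.654 and 1.16 times the median peak, and that of the insulator protein gene CTCF lay in an intron at 0.619 and 1.03 times. Of the replicates' own sets, that of replicate 2 alone held these 2 peaks. The RNA-binding genes were pAbp, for the poly(A)-binding protein, with an intronic peak at 2.97 and 2.24 times, Sxl, the switch gene of sex determination, with an intronic peak at 1.73 and 2.07 times 411 bp downstream, Fmr1 with 0.787 and 0.983 times, heph and Rbfox1. Upstream peaks were found at 9 of 37 and 10 of 34 genes of these lists, beside 1185 of all protein-coding genes (8.48%).

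Axon guidance, adhesion and synapse genes had 9 of 64 (14.1%), namely dlg1, robo2, Fas2, trn, Nrg, chb, sli, Fas3 and Ptp10D, with 15 upstream. The median pooled signal of their 10 peaks was 0.736 times the median peak, beside 0.755 for all downstream peaks. The guidance receptor robo2 had 0.621 and 1.24 times the median peak 56 bp downstream, its ligand sli 0.666 and 0.580 times at 41 bp, and the adhesion molecules Fas2 and Nrg 0.653 and 0.626 times in replicate 1 and 1.04 and 0.755 in replicate 2. Of the 10 peaks at these genes, 3 were held by both replicates' own sets, beside 51.2% of all downstream peaks.

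Developmental transcription factors had 6 of 95 (6.32%) and developmental signalling genes 1 of 62 (1.61%), with 16 and 13 genes upstream. The ecdysone-induced nuclear receptor gene Eip75B had a peak at 50 bp with 1.23 and 2.39 times the median peak, and another at 187 bp of a different start with 0.903 and 0.952 times. The forkhead gene CHES-1-like had a peak at 240 bp with 1.10 and 1.55 times, whose window held TAATTA. The nearest summit of replicate 1 lay at 351 bp there and that of replicate 2 at 244 bp. The gap gene hb had an intronic peak 324 bp downstream at 0.712 and 1.48 times. The nuclear receptor gene Hr78, the Fos gene kay and shn, which acts in Dpp signalling, completed the list. The signalling gene was Stat92E, the transcription factor of the JAK/STAT pathway, at 1.22 and 0.463 times. Its pooled signal was 0.300 times, the lowest of the 330 peaks beside no stronger one.

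Among the other lists, replication and cell cycle genes had 2 of 36. Dp, the partner of E2F, had an intronic peak 411 bp downstream at 2.17 and 2.44 times the median peak, and Cdk4 had a peak at 272 bp at 0.727 and 0.473 times. Cytoskeleton and muscle genes had 2 of 46, with sqh, the myosin regulatory light chain, in an intron at 2.49 and 2.90 times, and the integrin gene if at 1.00 and 1.10 times. Stress genes had 2 of 35, with the translation repressor Thor 34 bp downstream at 2.17 and 1.46 times and the Nrf2-like factor cnc in an intron at 1.32 and 1.63 times. Vesicle traffic and autophagy genes had 1 of 103, Syx17, whose pooled signal of 0.0134 times stood beside a stronger upstream peak.

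Several genes carried more than 1 such peak. Amun had 3 on X, at 8, 40 and 85 bp of different starts, with pooled signals of 0.0399, 1.18 and 1.41 times the median peak, the first of them beside the last. Pfrx, for the enzyme that makes fructose 2,6-bisphosphate, also had 3, at 78, 91 and 393 bp, of which that at 91 bp stood beside a stronger upstream peak. The kinase gene Sik3 had peaks at 1 and 185 bp with 1.33 and 1.91 times in replicate 1 and 0.738 and 1.46 times in replicate 2. CG32532 itself had 2 replicated peaks, at 538 bp downstream and -2759 bp, and neither met the distance limit.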

How the data were processed

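CG32532-eGFP ChIP-seq peak lists of 2 biological replicates were used. Per the labels, coordinates are on dm6 and chromatin was sonicated to 200 to 800 bp. The sources used here do not give the aligner or the peak caller. The signal of each peak is the authors' deposited value on an unstated scale, so multiples of the median peak were used. The deposited score is the irreproducible discovery rate (IDR) rescaled, with at least 830 in every thresholded set, and the deposited −log10 values entered no comparison. The lists hold no read counts, so the depth is unknown. Pooled calls give the conservative (replicated) and optimal sets, and each replicate also has its own. In the series-level ranked lists, 16 columns of per-replicate values carry no sample name and were not used.

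Summits were assigned to 19276 protein-coding TSS (Ensembl 115), with Python 3.11.15, pandas 2.3.3 and scipy 1.17.1. The assignment was tested on simulated data. Replicate values are the strongest overlapping peak of each ranked list, divided by that list's median over the replicated peaks. Shares have exact 95% binomial and Newcombe intervals. No p-value was computed, since peaks of 1 pair of libraries are not replicates. Named genes were the 20 strongest, the 3 weakest, the 3 nearest and farthest, the most discordant, those with 2 or more peaks, up to 3 per gene list, and the neighbours of the limits; genes with CA repeats, those outside the rule in the lists, and CG32532 were added after values were seen. Peaks, lists and motifs were chosen with earlier results of these data known.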

Additional observations from a re-analysis of the deposited data

Results flagged for a closer look

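The optimal set, which the comparisons above do not use, held 574 peaks that met the same rule, and 236 of them overlapped no replicated peak. They are listed here because they lie outside the sets compared, and the optimal set, being larger, holds more peaks by construction. These 236 peaks lay a median of 79 bp downstream, with a median signal 0.494 times the median replicated peak. The own set of replicate 2 held 137 of them and that of replicate 1 held 20. Of the 361 replicated downstream peaks, these sets held 303 and 204.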

How the results depend on the processing

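The number of downstream peaks was 574 in the optimal set and 105 for genes with a single TSS. The median distance of 75 bp was 84 to 87 bp in the replicates' own sets, 82.5 bp at a score of 1000, 45 and 167.5 bp at limits of 250 and 1000 bp, 63 bp for genes with a single TSS, 84 bp with TSS of any biotype and 70.5 bp without peaks beside a stronger one, an alternative chosen after seeing the data. The intron share of 25.2% was 23.8 to 23.9% in the own sets, and 20.2% (optimal set), 28.97% (score of 1000), 11.1% and 42.7% (limits of 250 and 1000 bp), 23.5% (head-to-head limit of 500 bp), 16.2% (genes with a single TSS), 25% (any biotype) and 25.5% (none beside a stronger peak). In the same order, the share reaching the TSS was 62.7 to 63.8%, 70.2%, 63.9%, 88.2% and 47.3%, 70.2%, 74.3%, 65.0% and 67.3%. The downstream to upstream ratio of median signals was 0.690 in the replicated set and kept its direction in every alternative run: 0.713 to 0.718 (own sets), 0.720 (optimal set), 0.712 (score of 1000), 0.657 and 0.752 (limits), 0.680 (head-to-head limit), 0.704 (opposite-strand TSS on either side), 0.662 (single TSS), 0.727 (any biotype), 0.742 (mean of replicate multiples) and 0.725 (none beside a stronger peak).

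The share held by both replicates was 40.08 to 80.2% in the own sets, where it is the share found in the other replicate's set. Its difference from upstream peaks was -11.7 to -7.41 points in the own sets, -6.41 at a score of 1000, -18.7 at 250 bp and -21.7 for genes with a single TSS. The GC difference of 6.39 points was 4.86 to 6.72 in the own sets, 4.83 at 1000 bp and 9.91 for genes with a single TSS. The GAGAG difference of -3.90 points was 0.663 in replicate 1's own set (range -3.78 to 0.663) and 2.05 for genes with a single TSS, and the TATCGATA difference of -1.93 was 0.0353 there; the causes were not tested. The TAATTA difference was -7.66 to -4.36 in the own sets and -4.27 in 100 bp windows, and the CACACAC one 4.88 to 9.46 and 2.80. Of 140 values under alternatives, 82 stayed within the spread between replicates, 55 moved beyond it and 3 turned direction. This spread is the SD of the values in the replicates' own sets, which are themselves among the alternatives. It was 167.6 for the number of peaks and 0.00306 for the ratio of median signals. The tally is therefore no measure of how robust a result is. No paired analysis was possible because the study has 1 group of 2 replicates. Depth is unknown, so what it limits could not be given.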
